A study of Arabidopsis thaliana with 10 samples.

Results

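JMT and OPCL1 are 2 genes of the jasmonate pathway, and each was measured by 1 probe set in Arabidopsis thaliana pistils and ovules. They were taken by symbol: a probe set counted when the platform annotation gave it exactly 1 gene and that gene was JMT or OPCL1. This rule found 2 of the 22745 probe sets tested, of which 13512 name exactly 1 gene: that of JMT (locus AT1G19640) and that of OPCL1 (locus AT1G20510). All plants were ecotype Columbia with no transgene or mutation named. The 5 groups held 2 arrays each. Pollinated pistils were harvested at 3 times, 0.5, 3.5 or 8 hours after pollen was applied (HAP, hours after pollination), unpollinated pistils came from flowers that were not pollinated, and ovules were dissected without fertilisation from unpollinated pistils. Flowers had been emasculated 24 hours before pollination. Each replicate was a pool, of 20 pistils from at least 10 plants or of about 1500 ovules taken from 50 pistils of about 30 plants. Pollinated pistils were profiled together with the pollen and pollen tubes on them, and unpollinated pistils contained their ovules. In such pooled tissue, fewer cells of a type and less RNA per cell cannot be told apart.

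Jasmonates are lipid hormones made from linolenic acid in the plastid and then in the peroxisome. In Arabidopsis flowers they are known for their part in stamen and pollen maturation, and elsewhere in the plant for responses to wounding and insects. OPCL1 encodes a peroxisomal acyl-CoA ligase that activates the precursor OPC-8:0, so that beta-oxidation can shorten it to jasmonic acid. JMT encodes a carboxyl methyltransferase that converts jasmonic acid into the volatile ester methyl jasmonate. One enzyme thus acts before jasmonic acid is formed and the other on jasmonic acid itself.

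Values are the linear intensities that the authors deposited. Medians over all tested probe sets lay between 251.5 and 272.2 on the 10 arrays. Bacterial control probe sets, which should find no target in plant RNA, reached 136.5 at their 95th percentile, and this value is called the background level. The labelled tissues were checked against marker lists. The 2 measured integument genes, INO and BAN, summed to 4235 and 4845 on ovule arrays, against 966.8 and 826.7 on unpollinated pistil arrays. Of the 5 measured stigma, style and transmitting tract genes 4 were called lower and 1, ARPN, higher in ovules than in unpollinated pistils. That comparison called 22% of all probe sets lower and 29.6% higher, at an adjusted p under 0.05. The sum of the 5 genes did not separate the tissues, at 3999 and 4108 on ovule arrays, against 4411 and 3984 on unpollinated pistil arrays. Unpollinated replicate 2 stood apart in a control for RNA integrity. Its actin control, read at the 3' end over the 5' end, had a log2 ratio of 2.96, while the other 9 arrays had 1.93 to 2.55. The submitters' array codes carry the letter J for 0.5 and 3.5 HAP, K for 8 HAP and unpollinated pistils, and L for ovules, with no meaning given. For pairs of groups with unlike letters, the letter and the group cannot be told apart.

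JMT was low in unpollinated tissue and higher in pollinated pistils at each of the 3 times. The 2 arrays of unpollinated pistils read 46.7 and 58.0. After pollination JMT read 184.3 and 186.3 (0.5 HAP), 138.2 and 154.1 (3.5 HAP), and 243.4 and 151.9 (8 HAP). The ovule arrays gave 62.8 and 64.9. The 6 pollinated arrays all lay above the 4 arrays of unpollinated pistils and ovules, and the replicates at 8 HAP lay furthest apart. JMT exceeded the background level on those 6 arrays and stayed within it on the other 4. The margin was small for 3.5 HAP replicate 1, at 138.2 against a level of 136.5.

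OPCL1 had a different course, with a peak at 0.5 HAP. Unpollinated pistils gave 605.9 and 480.0. After pollination OPCL1 gave 1198 and 1516 (0.5 HAP), 543.8 and 529.6 (3.5 HAP), and 743.0 and 774.4 (8 HAP). The ovule arrays, at 237.5 and 337.6, were the lowest. Both arrays at 0.5 HAP exceeded all others, and those at 3.5 HAP fell between the 2 unpollinated arrays. All 10 arrays were above the background level.

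**Figure D1:**
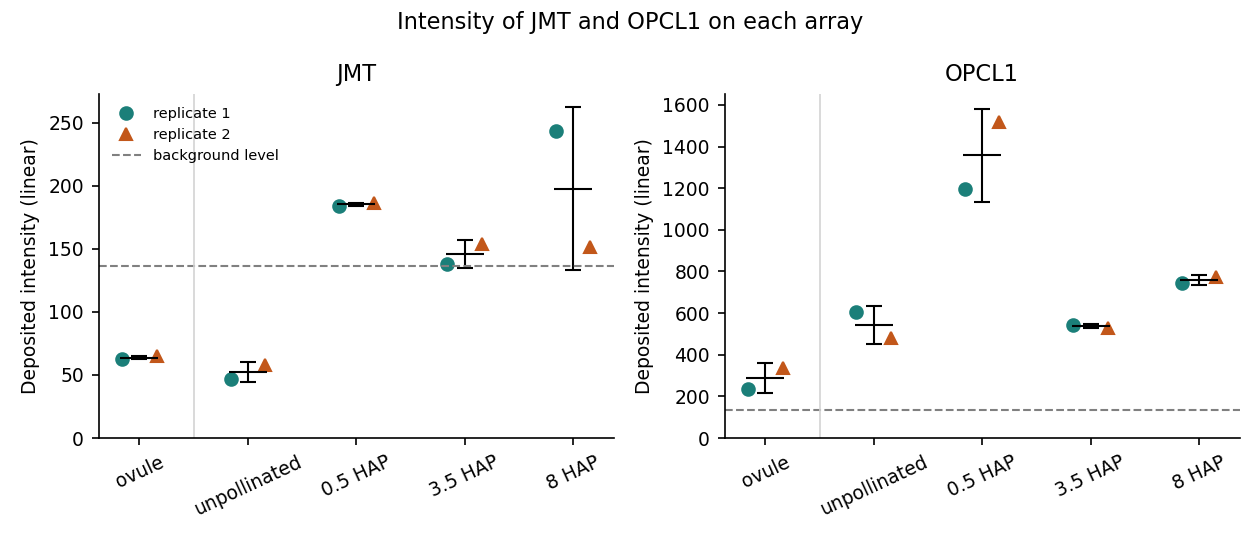
Deposited intensity of JMT (left) and OPCL1 (right) in the 5 groups, on a linear axis that starts at 0. Symbols are single arrays, black bars are the mean ± SD of 2 arrays, and the dashed line is the background level of 136.5; JMT lies above that line only in pollinated pistils, and OPCL1 peaks at 0.5 HAP.

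The comparison of pistils at 0.5 HAP with unpollinated pistils asked what had changed soon after pollen landed. Both genes rose. JMT averaged 185.3 ± 1.45 at 0.5 HAP and 52.3 ± 7.97 in unpollinated pistils (SD, n = 2 each), a log2 difference of 1.56 (SE 0.164; limma adjusted p = 4.14e-05). Because the unpollinated mean lay within the background level, this difference depends on the background. Measured against the background level of the unpollinated arrays, JMT was at least 1.39-fold higher. OPCL1 averaged 1357 ± 225 at 0.5 HAP and 542.9 ± 89.0 in unpollinated pistils (SD, n = 2 each), a log2 difference of 1.30 (SE 0.162; limma adjusted p = 0.000158). At the same threshold, an adjusted p of 0.05, 15.5% of all tested probe sets were called higher and 14.7% lower, so a call by itself was common here. Log2 differences are on the scale log2(intensity + 16), and their median over all probe sets in this comparison was -0.02.

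At 3.5 HAP the members parted. JMT was still higher, at 146.2 ± 11.2 against 52.3 ± 7.97 in unpollinated pistils (SD, n = 2 each; log2 difference 1.25, SE 0.164, limma adjusted p = 0.000197), or at least 1.09-fold against the background level. OPCL1 was at 536.7 ± 10.0 at 3.5 HAP and 542.9 ± 89.0 in unpollinated pistils (SD, n = 2 each). Its log2 difference was -0.01 (95% interval -0.36 to 0.35; limma adjusted p = 0.977), and after quantile normalization it was 0.02. Over all probe sets 12.9% were called higher and 17% lower at this time.

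By 8 HAP both genes were called higher than in unpollinated pistils, by unequal amounts and with unequal firmness. JMT averaged 197.6 ± 64.7 at 8 HAP and 52.3 ± 7.97 in unpollinated pistils (SD, n = 2 each; log2 difference 1.62, SE 0.164, limma adjusted p = 2e-05). Against the background level this was at least 1.44-fold. OPCL1 averaged 758.7 ± 22.3 at 8 HAP and 542.9 ± 89.0 in unpollinated pistils (SD, n = 2 each; log2 difference 0.48, SE 0.162, limma adjusted p = 0.0363). The OPCL1 call lay close to the threshold. Its log2 difference was 0.32 without unpollinated replicate 2, 0.51 without 8 HAP replicate 1 and 0.45 without 8 HAP replicate 2. The call was lost in each of these fits, which left a single array in a group. It was also lost without either 3.5 HAP array, although those arrays do not enter this difference. Of all probe sets, 19.7% were called higher and 18.8% lower. These 3 comparisons share the unpollinated arrays, so their values for a gene are not independent of each other.

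**Figure D2:**
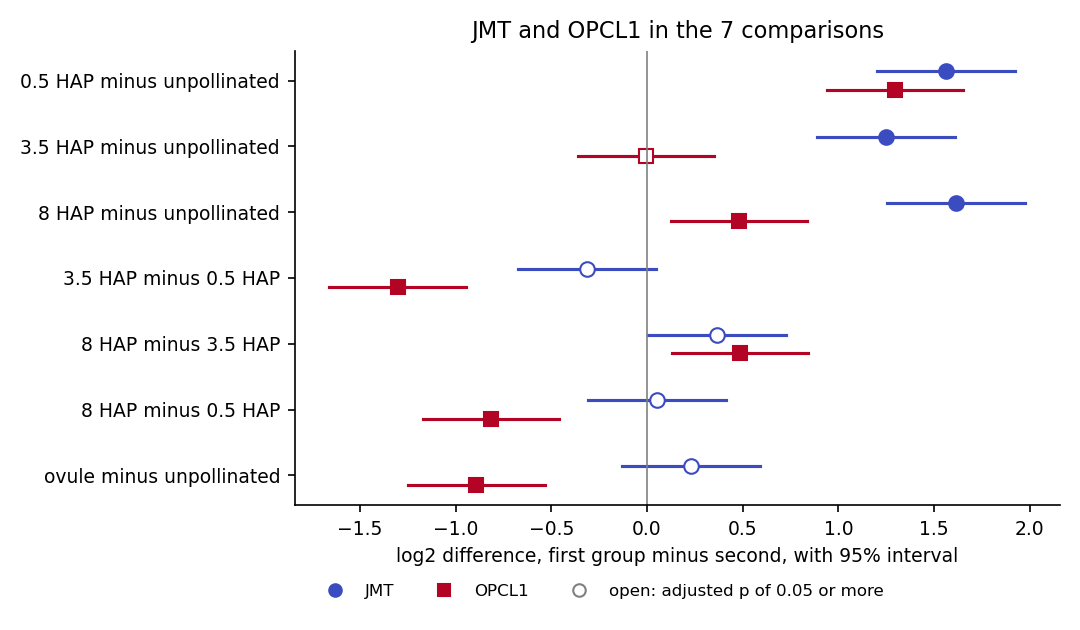
Log2 differences of JMT (circles) and OPCL1 (squares) in the 7 comparisons, first group minus second, with limma's 95% intervals, which are not adjusted for the number of probe sets; filled symbols have an adjusted p under 0.05. JMT is filled only in the 3 comparisons of pollinated with unpollinated pistils, whereas OPCL1 is filled in 6 comparisons and lies at -0.01 for 3.5 HAP minus unpollinated.

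Steps between times showed the fall of OPCL1 after its early peak. OPCL1 was lower at 3.5 HAP than at 0.5 HAP, at 536.7 ± 10.0 against 1357 ± 225 (SD, n = 2 each; log2 difference -1.30, SE 0.162, limma adjusted p = 0.000477). It remained lower at 8 HAP, at 758.7 ± 22.3 against the same 1357 ± 225 at 0.5 HAP (SD, n = 2 each; log2 difference -0.82, limma adjusted p = 0.00424). Without 0.5 HAP replicate 2 that last call was lost (log2 difference -0.65, adjusted p = 0.0612). At 8 HAP it was higher than at 3.5 HAP by a log2 difference of 0.49 (SE 0.162, limma adjusted p = 0.0408), and this call was lost on leaving out any 1 of the 4 arrays involved (adjusted p = 0.12 to 0.174) and with a replicate block (adjusted p = 0.0513).

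JMT passed the threshold in none of these steps. Its log2 difference was -0.31 at 3.5 HAP minus 0.5 HAP (95% interval -0.67 to 0.05, limma adjusted p = 0.237), 0.37 at 8 HAP minus 3.5 HAP (95% interval 0.01 to 0.73, limma adjusted p = 0.113) and 0.05 at 8 HAP minus 0.5 HAP (95% interval -0.31 to 0.41, limma adjusted p = 0.873). Single arrays turned the direction of the last of these, which was -0.26 without 8 HAP replicate 1 and 0.37 without 8 HAP replicate 2. The step to 8 HAP turned on replicate 1 of that time, the highest JMT array: without 8 HAP replicate 1 the difference was 0.05, and without 8 HAP replicate 2 it was 0.68 (adjusted p = 0.00741). Whether the 2 genes differed from each other in any of these changes was not tested. From 0.5 to 3.5 HAP 5.19% of all probe sets were called higher and 9% lower. The shares were 18.9% and 12.4% from 3.5 to 8 HAP, and 10.9% and 10.7% from 0.5 to 8 HAP.

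Ovules were compared with unpollinated pistils, which were separate pools that still contained their own ovules. OPCL1 was lower in ovules, at 287.5 ± 70.8 against 542.9 ± 89.0 in unpollinated pistils (SD, n = 2 each; log2 difference -0.89, SE 0.162, limma adjusted p = 0.000711). JMT was at 63.9 ± 1.46 in ovules and 52.3 ± 7.97 in unpollinated pistils (SD, n = 2 each), with both means within the background level, so no fold is given (log2 difference 0.23, limma adjusted p = 0.269). That JMT difference was -0.10 with arrays centred on 3 reference genes, a scaling that moved the median of all probe sets by -0.33 in this comparison, by 0.13 in each of 8 HAP minus unpollinated and 8 HAP minus 3.5 HAP, and by at most 0.1 in the others. Ovules and unpollinated pistils differed at many genes, with 29.6% of probe sets called higher and 22% lower. In order of mean level, JMT ran 8 HAP, 0.5 HAP, 3.5 HAP, ovule, unpollinated; neighbours were not called different except 3.5 HAP and ovule, which were not tested against each other and whose arrays did not overlap. OPCL1 ran 0.5 HAP, 8 HAP, unpollinated, 3.5 HAP, ovule, where unpollinated and 3.5 HAP were not called different and 3.5 HAP and ovule were not tested.

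Pollen markers were higher in the same groups as JMT. Of 13 listed pollen genes 7 were measured under a name, among them ANX1 and ANX2, receptor kinases of the pollen tube, and AT3G07820, a polygalacturonase. Their summed intensity was 1301 to 1480 in unpollinated pistils, 7692 to 7956 at 0.5 HAP, 12116 to 12903 at 3.5 HAP and 13767 to 13951 at 8 HAP, and 1032 to 1251 in ovules. Against unpollinated pistils 6 of the 7 were called higher at 0.5 HAP and all 7 at 3.5 and at 8 HAP, where 15.5%, 12.9% and 19.7% of all probe sets were. MGH3, a histone of the male germ line, was within the background level on all arrays, and ANX1 was above it only at 8 HAP. Neither gene followed this sum throughout. At 3.5 HAP, where the sum was larger than at 0.5 HAP, both arrays of OPCL1 and both arrays of JMT read lower than those at 0.5 HAP, and the difference was called for OPCL1 and not for JMT. The part of pollen RNA in either gene's level was not tested. The same 5 stigma, style and transmitting tract genes summed to 3984 to 4411 in unpollinated pistils, 7930 to 7964 at 0.5 HAP, 7165 to 8231 at 3.5 HAP and 3523 to 3765 at 8 HAP. Most of the sum at 0.5 HAP was 1 gene, ARPN, which averaged 4977 there and 1247 in unpollinated pistils. Of the 5 genes 3 were called higher and 1 lower at 0.5 HAP, where 15.5% and 14.7% of all probe sets were.

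**Figure D3:**
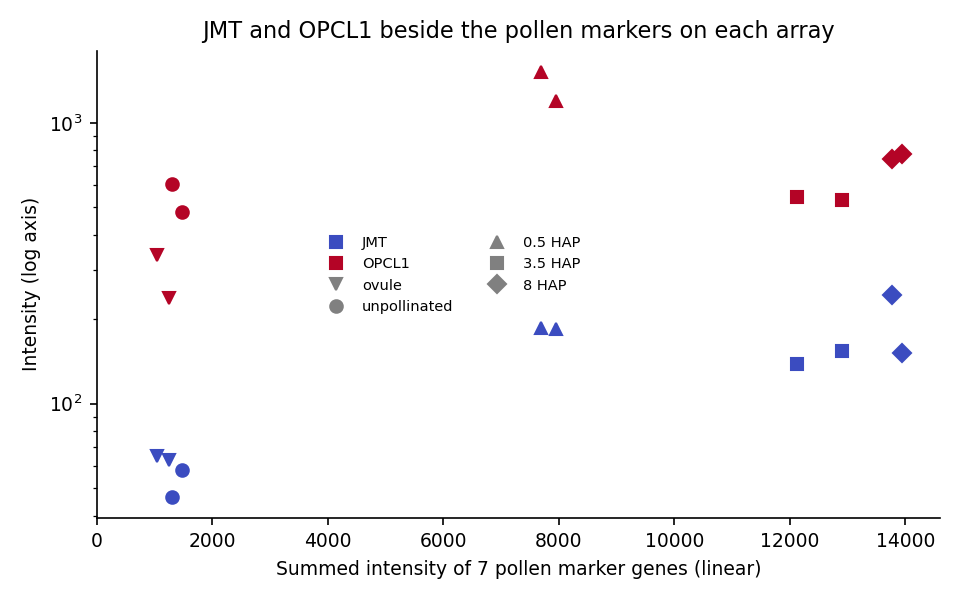
Intensity of JMT (blue) and OPCL1 (red) on each of the 10 arrays, on a log axis, against the summed intensity of the 7 measured pollen marker genes; symbol shapes mark the groups. JMT is higher on the 6 arrays with much pollen marker signal, while OPCL1 at 3.5 HAP (543.8 and 529.6) is no higher than in unpollinated pistils (605.9 and 480.0).

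The rest of the jasmonate pathway was covered thinly, since only 12 of 70 listed genes had a probe set with 1 gene name, JMT and OPCL1 included. Only such genes are called measured. Other listed genes may be read by probe sets that name no gene or several, which were not searched. Of these 12, 4 were called higher and 2 lower at 0.5 HAP than in unpollinated pistils, 5 and 1 at 3.5 HAP, and 5 and 1 at 8 HAP. In either direction 30.2%, 29.9% and 38.5% of all probe sets were called at these times, against 6 of the 12 genes at each. In ovules 1 was higher and 7 lower, in a comparison that called 51.6% of all probe sets (29.6% higher, 22% lower). The median log2 difference of the 12 was 0.15 at 0.5 HAP, 0.25 at 3.5 HAP, 0.14 at 8 HAP and -0.40 in ovules, where the medians over all probe sets were -0.02, -0.07, -0.01 and 0.04. Between times 3 were higher and 1 lower from 0.5 to 3.5 HAP, 2 and 4 from 3.5 to 8 HAP, and 2 and 2 from 0.5 to 8 HAP. All probe sets were called at shares of 14.2%, 31.4% and 21.6% in these steps, against 4, 6 and 4 of the 12 genes. The number called at 0.5 HAP grew without unpollinated replicate 1, which left unpollinated replicate 2 alone, the array that stood apart in the actin control. At 8 HAP the number called fell without 8 HAP replicate 1. Calls between 3.5 and 8 HAP were 3 in place of 6 without 3.5 HAP replicate 1, 3.5 HAP replicate 2 or 8 HAP replicate 1.

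AIM1, the only other synthesis gene measured under a name, encodes a multifunctional protein of peroxisomal beta-oxidation, the stage that follows OPCL1. It was at 1838 and 1842 at 0.5 HAP, against 1865 and 1463 in unpollinated pistils. It was not called different at 0.5 HAP (log2 difference 0.15, limma adjusted p = 0.285). Without unpollinated replicate 1 the AIM1 log2 difference was 0.33. That value rests on unpollinated replicate 2 alone, the array that stood apart in the actin control. Whether AIM1 and OPCL1 differed in the change at 0.5 HAP was not tested. AIM1 was lower in ovules (log2 difference -0.52, limma adjusted p = 0.00116).

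The jasmonate-induced oxygenases hydroxylate jasmonic acid to an inactive form, so like JMT they act on jasmonic acid. AT2G38240, one of these 4 enzymes, stood at 1075 and 1115 at 0.5 HAP, against 337.7 and 326.3 in unpollinated pistils. It was 3.19-fold higher at 0.5 HAP (log2 difference 1.68, limma adjusted p = 4.94e-06), by a log2 difference of 1.93 at 3.5 HAP (adjusted p = 1.25e-06) and 1.51-fold at 8 HAP (adjusted p = 0.00435, or 0.0516 without 8 HAP replicate 1). JRG21, a second one, had 1303 and 1332 in unpollinated pistils. Later it read 904.6 and 1049 (0.5 HAP), 2183 and 2327 (3.5 HAP), and 1969 and 1681 (8 HAP). It was lower at 0.5 HAP (log2 difference -0.43, limma adjusted p = 0.0123, or 0.13 without 0.5 HAP replicate 1) and higher at 3.5 HAP (log2 difference 0.77, adjusted p = 0.000361). JRG21 thus changed in the opposite direction to OPCL1 between 0.5 and 3.5 HAP, being 2.29-fold higher at 3.5 HAP (limma adjusted p = 5.74e-05). AT5G05600 was 1.79-fold higher at 3.5 HAP (3046 ± 228 against 1688 ± 47.5 in unpollinated pistils; SD, n = 2 each), and AT3G11180 rose at that time within the background level (log2 difference 0.50, adjusted p = 0.00743, or 0.0626 without 3.5 HAP replicate 2). In ovules JRG21 averaged 126.9 ± 13.6, far below the 1318 ± 20.7 of unpollinated pistils (SD, n = 2 each; log2 difference -3.23, limma adjusted p = 1.13e-09), an ovule mean within the background level. AT5G05600 and AT2G38240 were lower in ovules too, by 2.30-fold and 2.22-fold, the latter from an ovule mean of 140.6, close to the background level.

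Signalling and target genes were measured at 2 of 25 and 3 of 9 listed members. MYC4, a bHLH activator of jasmonate responses, stood at 469.3 and 473.3 at 8 HAP, against 259.8 and 178.6 in unpollinated pistils (log2 difference 1.07, limma adjusted p = 0.000181). It was not called at 0.5 or 3.5 HAP (adjusted p = 0.172 and 0.672). Without unpollinated replicate 1 its log2 differences at these times were 0.53 and 0.34, in place of 0.28 and 0.09. Those values rest on unpollinated replicate 2 alone, the array that stood apart in the actin control. MYC3, a close relative of MYC4, was not called in any of the 7 comparisons with all arrays. Without unpollinated replicate 1 the MYC3 log2 differences were 0.47 at 0.5 HAP and 0.54 at 3.5 HAP, in place of 0.15 and 0.22, again against unpollinated replicate 2 alone. In ovules MYC3 was called lower under centring on reference genes (log2 difference -0.44, limma adjusted p = 0.0432). Without unpollinated replicate 2 the ovule difference of MYC3 was also -0.44, in place of -0.11 with all arrays. THI2.1, a thionin that jasmonate induces in seedlings, had 10549 and 10739 at 0.5 HAP, against 13150 and 12856 in unpollinated pistils, and was lower at all 3 times (log2 differences -0.29, -0.23 and -0.35; the call at 3.5 HAP was lost without 3.5 HAP replicate 2, adjusted p = 0.0525). It was higher in ovules, at 19000 and 19174 against those same 2 arrays of unpollinated pistils (log2 difference 0.55, limma adjusted p = 2.68e-06), which quantile normalization did not call. The defensins PDF1.2 and PDF1.2b stayed within the background level on all 10 arrays.

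**Figure D4:**
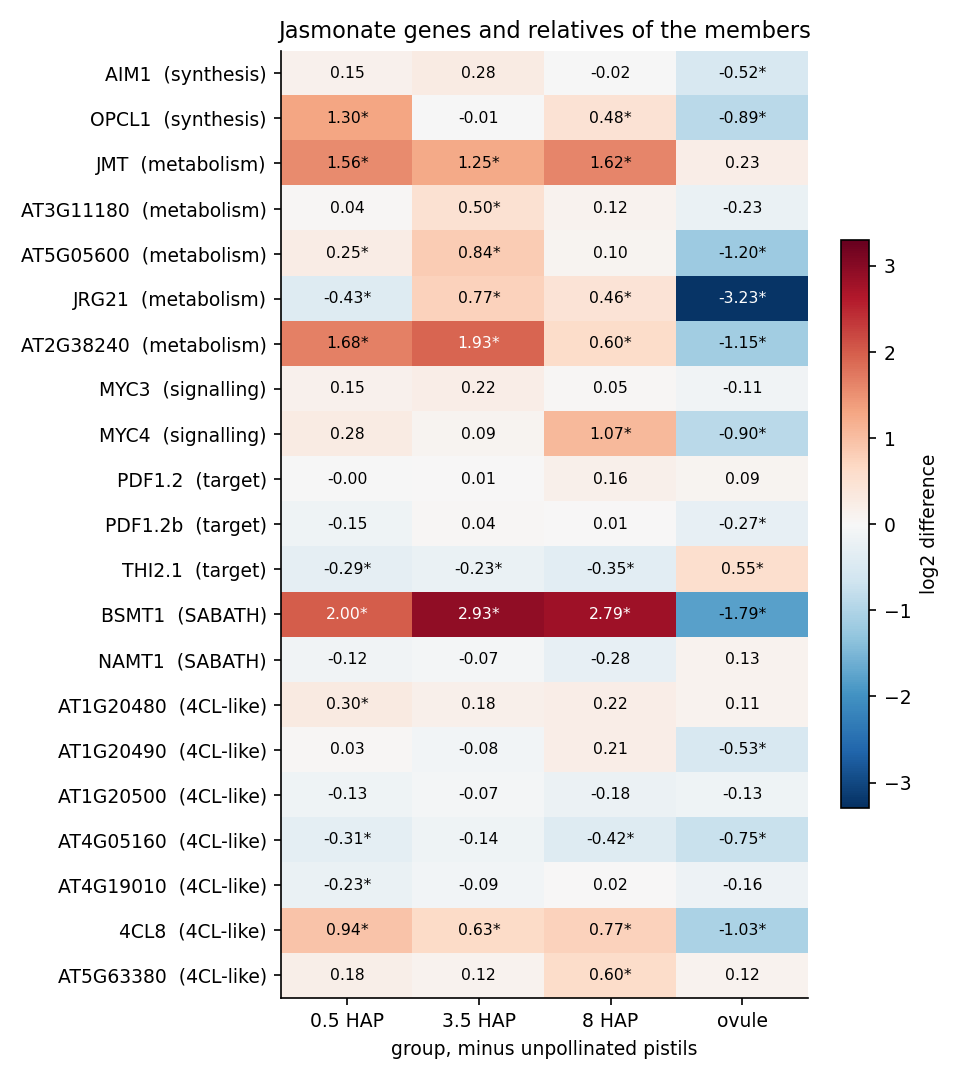
Log2 differences from unpollinated pistils, at 0.5, 3.5 and 8 HAP and in ovules, for the 12 measured jasmonate genes and 9 relatives of JMT (SABATH) and OPCL1 (4CL-like). Colour and number give the log2(intensity + 16) difference and an asterisk marks an adjusted p under 0.05; BSMT1 has the largest rises shown and JRG21 the largest fall.

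Relatives of each member were compared with it, since they share its enzyme family. JMT belongs to the SABATH methyltransferases, of which 2 others of 6 listed were measured. BSMT1, which methylates salicylic and benzoic acid, was at 1110 and 1173 at 0.5 HAP, against 274.5 and 270.5 in unpollinated pistils. Like JMT it was higher at 0.5, 3.5 and 8 HAP, by 4.01-fold, 7.63-fold and 6.94-fold (limma adjusted p = 7.65e-07, 2.16e-08 and 2.31e-08). BSMT1 rose further between 0.5 and 3.5 HAP (log2 difference 0.93, limma adjusted p = 0.000729) and was lower in ovules, at 67.3 ± 0.653 against 272.5 ± 2.89 in unpollinated pistils (SD, n = 2 each). That ovule mean was within the background level, so the size of the difference depends on the background. NAMT1, a nicotinate methyltransferase, stayed within the background level on all arrays. Whether BSMT1 and JMT differed in any change, and whether probes of one SABATH gene also detect another, was not tested.

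OPCL1 belongs to the 4-coumarate-CoA ligase-like (4CL-like) acyl-activating enzymes, of which 7 others of 12 listed were measured. At 0.5 HAP 2 of the 7 were called higher and 2 lower, where 30.2% of all probe sets were called. Of these 4 calls, that of 4CL8 held in all 21 alternatives run for it, while AT1G20480 lost its call in 15 of 20, AT4G19010 in 14 of 20 and AT4G05160 in 5 of 21. 4CL8 had 336.4 and 368.5 at 0.5 HAP, against 159.0 and 195.5 in unpollinated pistils (log2 difference 0.94, limma adjusted p = 0.000148). It kept higher at 3.5 HAP (log2 difference 0.63) and 8 HAP (log2 difference 0.77), and was lower in ovules (log2 difference -1.03, from an ovule mean within the background level). AT5G63380 was higher only at 8 HAP among the 3 times (log2 difference 0.60, limma adjusted p = 0.000316). Between 0.5 and 3.5 HAP limma called 0 of the 7, where 14.2% of all probe sets were called. At an unadjusted p under 0.05 there was 1, 4CL8 (log2 difference -0.31, adjusted p = 0.102), which was called lower with arrays centred on reference genes, with array weights and with only those groups in the fit (adjusted p = 0.03, 0.0302 and 0.0222).

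Neighbouring genes were read from the RefSeq gene table (assembly TAIR10.1), used for gene order only. The 3 protein-coding genes directly before OPCL1 are 4CL-like themselves. AT1G20500, next to it, was within the background level on all arrays, and AT1G20490 had a log2 difference of 0.03 at 0.5 HAP (limma adjusted p = 0.862). AT1G20480 had 0.30 (limma adjusted p = 0.0491), a call lost without 7 of the 10 single arrays, among them unpollinated replicates 1 and 2. The 3 genes after OPCL1, AT1G20520, AT1G20530 and AT1G20540, were not called at 0.5 HAP. Of the 6 measured neighbours of JMT, 1 was called higher and 2 lower at 0.5 HAP, and AT1G19620, AT1G19680 and AT1G19690 were not called. Over all probe sets 15.5% were called higher and 14.7% lower in that comparison. AT1G19650, next to JMT, was higher at 0.5 HAP, at 288.7 ± 14.7 against 207.0 ± 6.98 in unpollinated pistils (SD, n = 2 each; log2 difference 0.45, limma adjusted p = 0.00213). PDF1.4, a defensin-like gene on the other side of JMT, fell at 0.5 HAP, to 100.8 ± 3.73 against 401.0 ± 110 in unpollinated pistils (SD, n = 2 each; log2 difference -1.81, limma adjusted p = 1.24e-05), with the 0.5 HAP mean within the background level. AT1G19600 was lower too (log2 difference -0.26, limma adjusted p = 0.0317), a call lost in 6 of 21 alternatives, among them those without unpollinated replicate 2, 0.5 HAP replicate 1 or 0.5 HAP replicate 2.

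The genes with the most similar course were ranked by Pearson's r of log2(intensity + 16) over the 10 arrays, among 2253 probe sets naming 1 gene, with group means that spanned at least 1 on the log2 scale and exceeded the background level in some group. These values describe arrays that share their groups and scaling, and carry no test. For JMT the 5 highest were AT2G18180 (r = 0.97), AT3G61160, a shaggy-like kinase (r = 0.96), AT1G04470 (r = 0.95), AT5G50830 (r = 0.95) and AT3G20530 (r = 0.95). AT3G61160 averaged 186.6 in unpollinated pistils, 939.1 at 0.5 HAP, 892.9 at 3.5 HAP and 1362 at 8 HAP, and 163.1 in ovules. In unpollinated pistils and in ovules, the means of AT2G18180, AT1G04470, AT5G50830 and AT3G20530 lay within the background level, like those of JMT. For OPCL1 they were AT3G01830, a calmodulin-like protein (r = 0.96), AT2G27080 (r = 0.96), psbD, the plastid gene for a photosystem II core protein (r = 0.95), AT1G76600 (r = 0.95) and AT5G19240 (r = 0.95). AT5G19240 averaged 192.8 in unpollinated pistils, 1018 at 0.5 HAP, 318.6 at 3.5 HAP and 555.3 at 8 HAP, and 109.8 in ovules. Group means of AT3G01830 lay within the background level except at 0.5 HAP (281.6). JMT and OPCL1 correlated with each other at r = 0.68 over the 10 arrays.

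**Figure D5:**
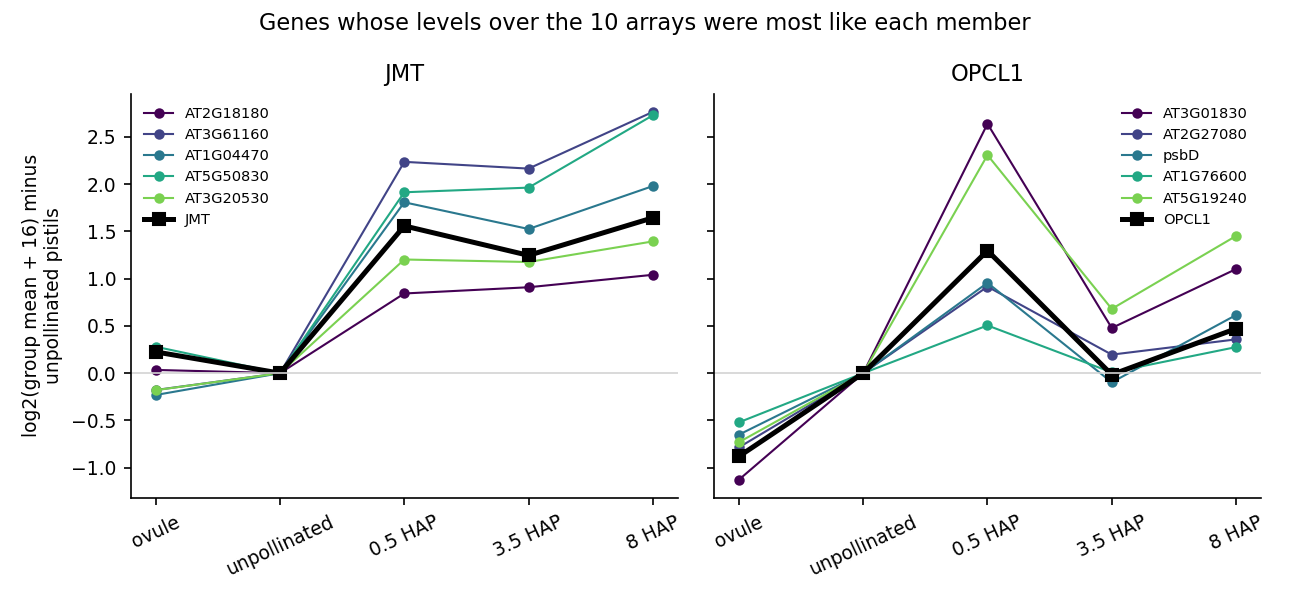
Group means of JMT (left) and OPCL1 (right), in black, and of the 5 genes most like each, as log2(group mean + 16) minus that of unpollinated pistils. JMT and its 5 genes lie above 0 at the 3 times after pollination, whereas OPCL1 and its 5 genes are highest at 0.5 HAP and below 0 in ovules. The genes were chosen for their likeness on these same arrays, so a shared course follows from the choice.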

How the data were processed

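The series measured transcripts on 10 one-colour arrays. RNA (100 ng) was amplified in 2 rounds and labelled with biotin, per the labels' protocols. Linear intensity values for 22810 probe sets stand in 1 table that the authors deposited, and the submitters' processing notes name MAS5 without its role or version. Close medians show a common scaling whose method is not given in the sources used here. All columns were used. The 64 control probe sets and 1 without values were left out, which left 22745. The background level (136.5) is the 95th percentile of 27 bacterial control probe sets.

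On log2(intensity + 16), limma 3.58.1 in R 4.3.3 (lmFit, contrasts.fit, eBayes with trend) was fitted to all 5 groups, with Benjamini-Hochberg adjustment over all probe sets and a threshold of 0.05. With 2 arrays a group, the spread is largely borrowed across probe sets, and the number of arrays limits the precision. The lower bounds on folds compare geometric means without the added 16. Each dim array counted at its own bacterial 95th percentile (106.2 to 142.0 over the 10 arrays) or at its own value where that was higher.

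Named genes were JMT, OPCL1, all listed jasmonate, SABATH and 4CL-like genes with a probe set of 1 name, and the 5 genes most like each member. Tables were joined with Python 3.11.15. The members and lists were chosen with earlier results of these data known. The neighbours, 3 measured genes on each side of a member, were added after the values were seen. Alternatives were other pseudocounts (1 and 64), quantile normalization, centring on 3 reference genes, leaving out the dimmest 40% of probe sets, smaller fits, no trend, a robust fit, array weights, a replicate block and leaving out each array.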

Additional observations from a re-analysis of the deposited data

How the results depend on the processing

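The 14 results of JMT and OPCL1 were recomputed 285 times in all, and 270 of these values kept direction and side of the threshold, or were not called in either. JMT stayed called higher against unpollinated pistils at 0.5, 3.5 and 8 HAP in all 20 alternatives run for each. Without single arrays its log2 differences were 1.44 to 1.68, 1.13 to 1.37 and 1.30 to 1.93. JMT was among the dimmest 40% of probe sets, so that filter gave no value for it. OPCL1 stayed higher at 0.5 HAP (1.13 to 1.46) and lower at 3.5 than at 0.5 HAP (-1.47 to -1.14) in 21 alternatives, and lower in ovules (-1.22 to -0.65) in 20.

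OPCL1 at 8 HAP minus unpollinated was 0.48 with array weights (adjusted p = 0.0563) and ran from 0.32 to 0.64 without single arrays. At 8 HAP minus 3.5 HAP it was 0.49 with the replicate block (adjusted p = 0.0513) and 0.46 to 0.52 without single arrays. At 8 HAP minus 0.5 HAP it ran from -0.98 to -0.65 without single arrays. JMT at 8 HAP minus 3.5 HAP was called under centring on reference genes (0.49, adjusted p = 0.0313), and ran from 0.052 to 0.68 without single arrays. JMT at 3.5 HAP minus 0.5 HAP passed with only those groups in the fit (-0.31, adjusted p = 0.0213). The cause of these changes was not tested.

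Calls among the 12 jasmonate genes numbered 6 in the full fit for 0.5 HAP, 8 HAP (each minus unpollinated) and 8 HAP minus 3.5 HAP. Leaving out single arrays gave 4 to 10, 3 to 6 and 3 to 7 of them. Of 77 calls of 28 other genes (list members and neighbours), 48 held in all alternatives run; the 10 genes most like a member were not recomputed. AT1G19650 in ovules minus unpollinated pistils was 0.27 and, under the same centring, -0.062. Correlations between groups of the difference between replicates lay between -0.07 and 0.11, except -0.32 for ovules with unpollinated pistils. In that pair, same-numbered replicates tended to deviate in opposite directions. The actin log2 ratio was 2.55 and 2.01 in ovule replicates 1 and 2, and 1.95 and 2.96 in those of unpollinated pistils. Whether RNA integrity played a part was not tested. The labels state no pairing, so the block is an alternative only; it changed no other call of JMT or OPCL1.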
